A study of Homo sapiens with 12 samples.

Results

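Glycolysis breaks glucose down to pyruvate. Here 32 genes of this pathway and of the steps around it were followed across attached and floating lung cancer cells with and without GFI1. They comprise 2 glucose transporters, 9 enzymes of the preparatory steps that spend ATP, 6 enzymes of the payoff steps that return it, 3 regulators of phosphofructokinase, 4 genes that make or move lactate, 6 genes of the pyruvate dehydrogenase gate, and 2 genes that link glucose phosphates to glycogen. They were taken by gene symbol from the 58735 rows of the gene count table, and were chosen with earlier results of these data known. All 32 passed the filter on low counts, as did 17829 genes in all. In these cells suspension went with more transcript for most of the 32 genes. The rise was led by *ALDOC*, *HK2*, *PFKFB4* and *PDK1* in control cells and by *HK2*, *SLC2A3*, *ALDOC* and *PFKFB4* in GFI1 cells. With GFI1, by contrast, some of the 32 genes were higher and others lower.

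As background, glucose enters cells through SLC2A transporters and is trapped by hexokinases, and the phosphofructokinase step commits it to breakdown. Pyruvate is then either reduced to lactate and exported by SLC16A transporters, or passed into mitochondria by pyruvate dehydrogenase, which the PDK kinases switch off. Many of these genes exist as several isozymes, and some of them, such as *SLC2A1*, *HK2*, *ALDOC*, *PFKFB4* and *PDK1*, are textbook targets of hypoxia-inducible factors. The genes named as examples are all among the 18 members that rose with suspension in both genotypes, so they do not show how such targets changed in general. The members were not sorted into targets and others, so members that did not rise, such as *ENO1*, *TPI1* and *PGAM1*, may be targets as well. So may *PFKFB3*, which rose in GFI1 cells only. A shared response of such targets was not tested.

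A549 is an established human lung adenocarcinoma line that grows attached. The study asked how GFI1, a zinc-finger repressor of blood cell development, changes epithelial cancer cells that lose their substrate. Control A549 cells and A549 cells that express GFI1 were either left attached on treated plates or forced into suspension for 48 hours on ultra-low attachment plates, and each of the 4 groups had 3 libraries of poly-A RNA. The study maintained A549 cells in serum-containing medium, and it did not state the medium of the suspended cultures separately. GFI1 came from a lentivirus with the human PGK promoter and a GFP marker, and GFP-positive cells were sorted for RNA-Seq. The vector of the RNA-Seq controls was not named, so GFI1 and transduction cannot be told apart in the GFI1 comparisons. The labels do not state whether the 3 libraries of a group came from separate cultures, so p-values measure the spread between these libraries, which may be technical.

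Each library held 17014188 to 20748677 counts, and the 32 genes together took 1.59% to 2.43% of them. GFI1 had 4 to 12 counts in the control libraries and 5154 to 12796 in the GFI1 libraries, which matched the labels. The 6 epithelial markers were all detected, and their summed level ran from 10386 to 10986 CPM in attached controls, 6529 to 6938 in floating controls, 4222 to 4339 in attached GFI1 cells and 3039 to 3411 in floating GFI1 cells. CPM is the usual unit in which each count is scaled to a common library total, here after TMM scaling. The part of this shift in the differences below was not tested. Leukocyte markers were near 0, with at most 9 counts in a library for any of 5 genes and none for *CD3E*. Of 4 endothelial markers 2 passed the filter, and the summed level of the 4 was 0.109 to 0.344 CPM in attached and 0.283 to 0.662 in floating controls, and 3.55 to 5.21 in attached and 4.96 to 5.52 in floating GFI1 cells, led by *CDH5* with at most 89 counts. Of 6 fibroblast markers 3 passed, with a sum over the 6 of 13.0 to 15.2 CPM in attached controls, 9.18 to 10.7 in floating controls, 9.83 to 10.8 in attached GFI1 cells and 7.56 to 9.54 in floating GFI1 cells, and *DCN* was at 0. The part of either list in the differences was not tested. The floating GFI1 libraries stood apart from each other, with a chi-square per gene of 11.9 between replicates 2 and 3, against 2.01 to 5.01 in the other 11 pairs of replicates.

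**Figure D1:**
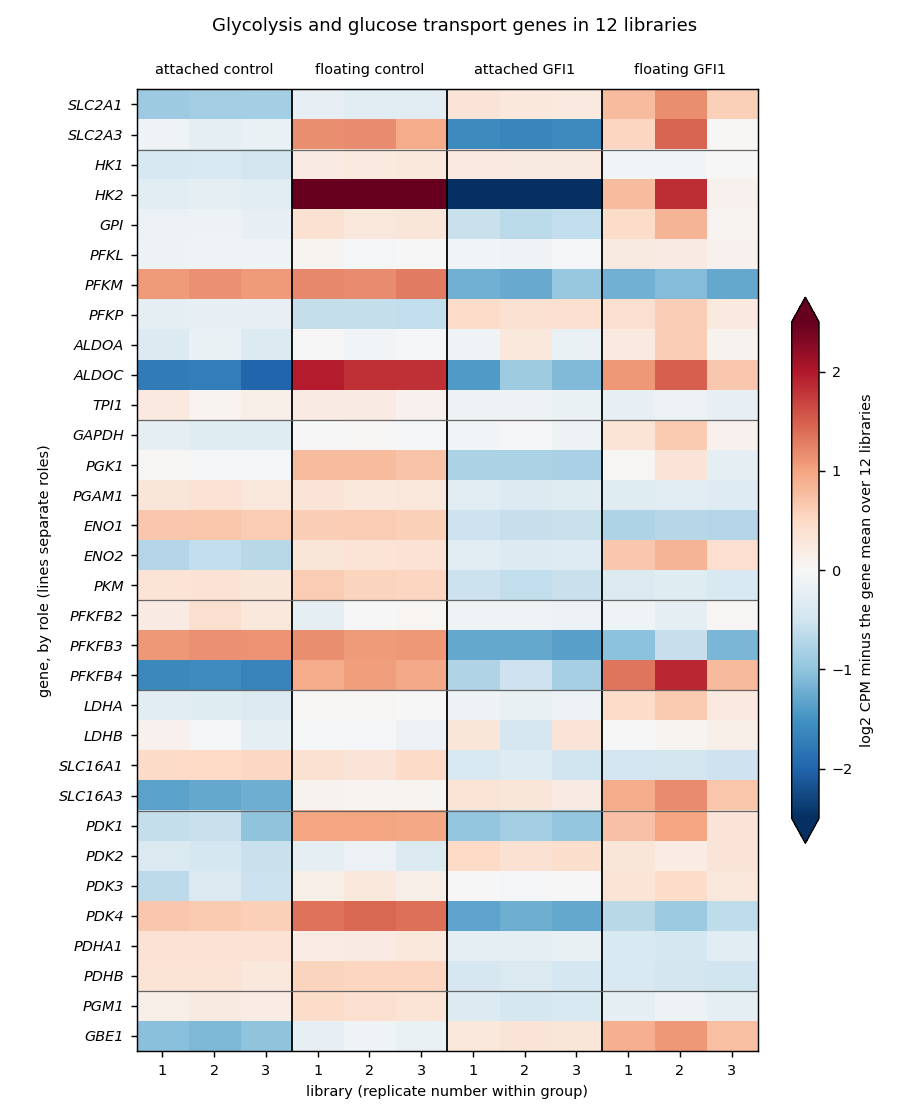
Level of each of the 32 genes in each of the 12 libraries, as log2 CPM minus the mean of that gene over the 12 libraries. Rows are genes in order of their role, columns are libraries, red is above and blue below the gene mean, and the colour scale ends at 2.5 log2 units in either direction. *HK2* and *ALDOC* have the strongest contrast between attached and floating libraries, while *PFKM* and *PFKFB3* divide control from GFI1 libraries.

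Between genes, levels were compared per gene length, as RPKM. In attached controls 3 enzymes of the payoff steps were the most abundant, *GAPDH* at a mean of 1209 RPKM, *ENO1* at 635 and *PKM* at 558. At the other end stood *HK2* at 0.636 RPKM, *PDK1* at 0.689 and *ALDOC* at 0.992. The places of *ALDOA*, at 4.73 RPKM, and *LDHB*, at 13.9, are uncertain. Other genes of the same strand share 42.8% and 33.4% of their exon bases in GENCODE v44. In floating GFI1 cells *GAPDH* was at 1907 RPKM and *LDHA* at 489.9, and *ENO1* at 239 had dropped below *PKM* at 346 and *TPI1* at 281. The 32 genes together took 1.87% ± 0.0205 of all counts in attached controls and 2.26% ± 0.0243 in floating controls (SD, n = 3 each). The share was 1.60% ± 0.0195 in attached GFI1 cells and 2.14% ± 0.279 in floating GFI1 cells (SD, n = 3 each), so the last group varied most.

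The effect of suspension was asked in each genotype. Log2 fold changes are given with their SE, from edgeR's quasi-likelihood test over all 17829 genes with Benjamini-Hochberg adjustment, and a gene was called at an adjusted p of 0.05 or less with no threshold on the fold. In control cells 21 of the 32 genes rose and 3 fell, where 40.1% of all genes tested were called, 19.6% of them higher and 20.5% lower. In GFI1 cells 20 rose and 3 fell, against 31.3% of all genes called, 15.0% higher and 16.3% lower. The median log2 fold change of the 32 genes was 0.25 in control and 0.34 in GFI1 cells, against 0.011 and 0.0017 over all genes tested. A rise of at least 2-fold was called for 7 genes in control cells and 6 in GFI1 cells, against 3.70% and 1.98% of all genes tested. No member fell by as much, as 1.40% and 0.824% of all genes did. In both genotypes the same 18 genes rose, where 9.77% of all genes did and 11.8% fell in both, and they include both glucose transporters, *HK2*, *ALDOC*, *ENO2*, *PFKFB4*, *SLC16A3* and 3 of the 4 PDK kinases. A lower level in every cell and fewer cells that express a gene cannot be told apart in such bulk libraries.

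**Figure D2:**
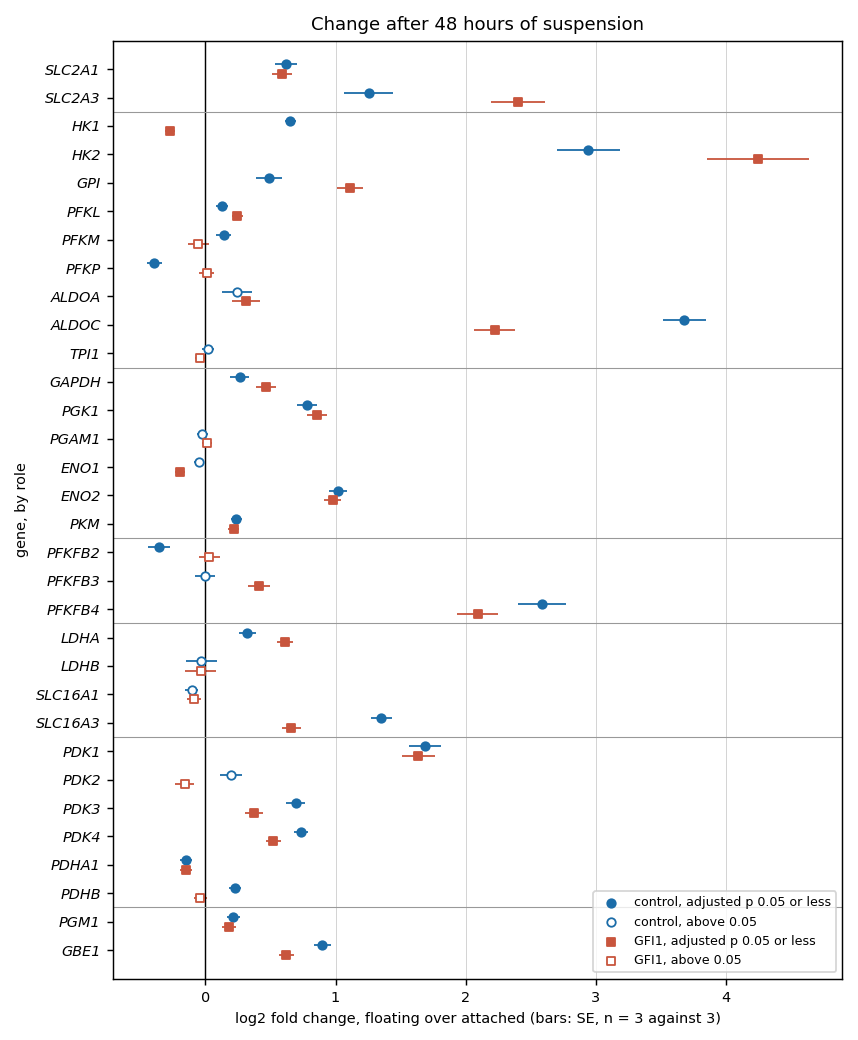
Change of each gene after 48 hours of suspension, as the log2 fold change of floating over attached libraries, with the SE as a bar. Blue circles are control and red squares GFI1 cells, filled where the adjusted p was 0.05 or less. *ALDOC* and *HK2* lie farthest to the right, and *HK1* has its control and GFI1 symbols on opposite sides of 0.

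The effect of GFI1 was asked in attached and in floating cells. In attached cells 13 of the 32 genes were higher with GFI1 and 16 lower, where 62.3% of all genes were called, 29.5% higher and 32.8% lower. In floating cells 12 were higher and 16 lower, against 60.4% of all genes called, 29.3% higher and 31.1% lower. The medians were -0.26 and -0.28, against -0.0066 and 0.011 over all genes. At least 2-fold differences were called for 3 genes higher and 6 lower in attached cells, against 9.70% and 8.51% of all genes. In floating cells they were called for 3 higher and 5 lower, against 8.44% and 8.82%. Whether attached or floating, 11 genes were higher, where 22.9% of all genes were, among them *SLC2A1*, *SLC16A3* and *GBE1*. A set of 13 was lower in both states, where 26.7% of all genes were, among them *PFKM*, *PFKFB3*, *PDK4*, *ENO1* and *HK2*. Scaling by library size alone put the median of all genes at 0.14 in both comparisons and that of the 32 genes at -0.12 and -0.15, with 15 higher and 16 lower when attached and 14 higher and 15 lower when floating.

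**Figure D3:**
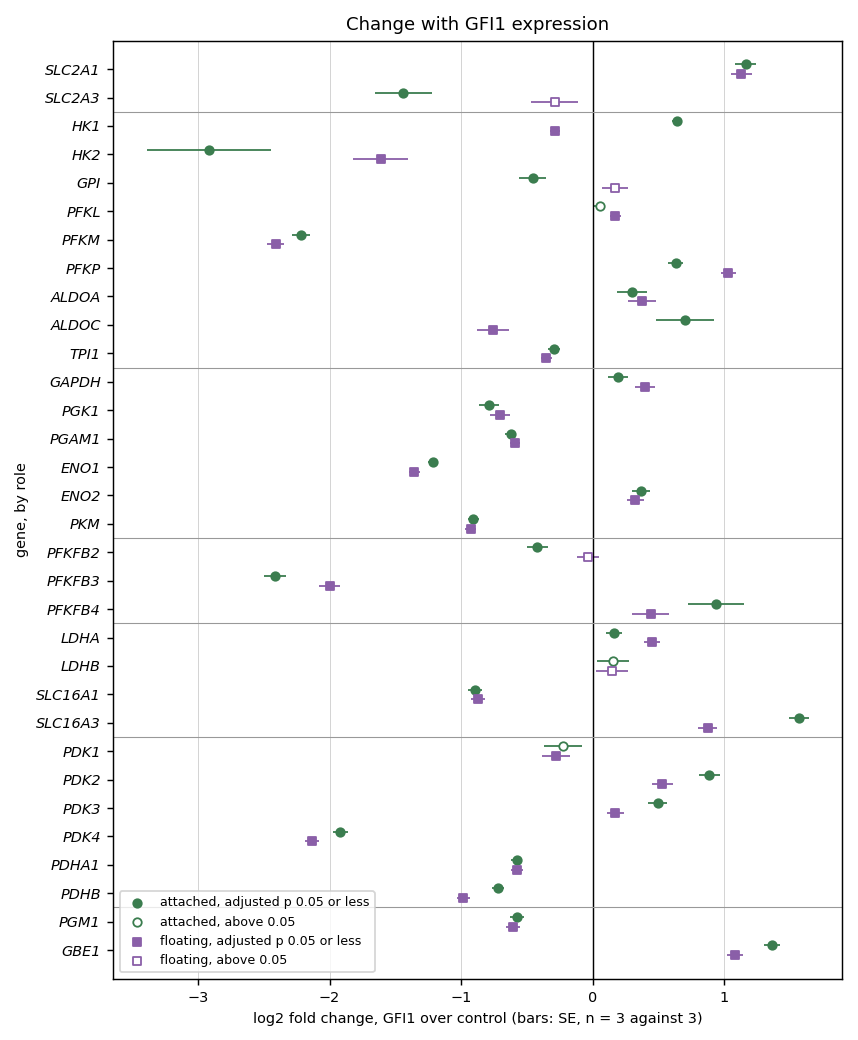
Difference of each gene between GFI1 and control cells, on the log2 scale, GFI1 libraries over control libraries, with the SE as a bar. Green circles are attached and purple squares floating cells, filled where the adjusted p was 0.05 or less. *HK2*, *PFKM*, *PFKFB3* and *PDK4* lie to the left, and *SLC2A1*, *SLC16A3* and *GBE1* to the right.

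The difference between both suspension effects was tested as an interaction. It was called for 13 of the 32 genes, where 10.8% of all genes tested were called, 4.76% higher and 6.01% lower. The suspension change was higher in GFI1 cells for 6 genes, *SLC2A3*, *GPI*, *PFKP*, *PFKFB2*, *PFKFB3* and *LDHA*. It was lower in GFI1 cells for 7 genes, *HK1*, *ALDOC*, *SLC16A3*, *PDK2*, *PDK3*, *PDHB* and *GBE1*. Leaving out single libraries gave 8 to 13 calls, 8 of them without attached GFI1 replicate 3 or floating control replicate 2, and DESeq2 gave 8, with 1 higher (*PFKP*) and 7 lower. The 7 lower in DESeq2 lack *PDK2* and include a member that edgeR did not call.

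Both glucose transporters rose with suspension in both genotypes. SLC2A1 (ENSG00000117394, chr1:42925353-42958893) encodes GLUT1, the general glucose transporter of most cells. It was at 192, 198 and 199.9 CPM in attached controls and 312, 297 and 297 in floating controls, and at 452, 435 and 429 CPM in attached GFI1 cells and 626, 809 and 545 in floating GFI1 cells. No library of any group overlapped with another group, and floating GFI1 replicate 2 was the highest of all. Suspension raised *SLC2A1* by a log2 fold change of 0.62 ± 0.08, adjusted p 1.03e-06 in control cells and 0.59 ± 0.08, adjusted p 2.31e-06 in GFI1 cells, and the difference between these changes was not called (-0.03 ± 0.11, adjusted p 0.915). GFI1 went with a 2.23-fold higher level in attached and a 2.19-fold higher level in floating cells (1.16 ± 0.08, adjusted p 4.5e-12 and 1.13 ± 0.08, adjusted p 5.85e-12).

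SLC2A3 (ENSG00000059804, chr12:7919230-8019007) encodes GLUT3, a transporter of high affinity known from neurons. Its levels were 78.1, 72.2 and 74.6 CPM in attached controls, 187, 189.8 and 159.8 in floating controls, 27.7, 27.3 and 27.9 in attached GFI1 cells and 123, 231 and 86.2 in floating GFI1 cells. The attached groups were tight and far apart, whereas the floating GFI1 libraries spread to both sides of the floating controls. *SLC2A3* rose 2.38-fold in control cells (1.25 ± 0.19, adjusted p 5.68e-06) and 5.29-fold in GFI1 cells (2.40 ± 0.21, adjusted p 1.7e-09), and the rise was larger in GFI1 cells (difference 1.15 ± 0.28, adjusted p 0.00737). With GFI1 it was 2.71-fold lower in attached cells (-1.44 ± 0.21, adjusted p 2.27e-06). The floating difference of -0.29 ± 0.18, adjusted p 0.166 was not called. Without floating GFI1 replicate 2 the difference between the suspension effects was 0.64, still called, and in DESeq2 it was not called (1.14, adjusted p 0.0656). The GFI1 difference in floating cells became -0.77 without that library (adjusted p 5.69e-11) and was called with no filter on low counts (-0.29, adjusted p 2.51e-08). The near-identical paralog *SLC2A14* shares sequence with *SLC2A3*, and adding its counts changed no call.

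Hexokinases trap glucose as its phosphate, and 2 of them are among the 32 genes. HK2 (ENSG00000159399, chr2:74834127-74893359), the inducible form, held 3.81, 3.96 and 3.79 CPM in attached and 29.8, 28.6 and 30.6 in floating controls. In GFI1 cells it held 0.394, 0.785 and 0.300 CPM attached and 7.94, 16.5 and 4.97 floating, and the attached values rest on 7, 17 and 6 counts. The 4 groups did not overlap. *HK2* was 7.69-fold higher after suspension in control cells (2.94 ± 0.24, adjusted p 3.52e-10) and 19.00-fold higher in GFI1 cells (4.25 ± 0.39, adjusted p 5.87e-09), and the latter was 3.63 on the log2 scale without floating GFI1 replicate 2. It was lower with GFI1 in both states (-2.92 ± 0.47, adjusted p 7.52e-06 attached, -1.61 ± 0.21, adjusted p 2.66e-07 floating), and the floating value was -2.21 without floating GFI1 replicate 2. The difference between its suspension effects was not called (1.31 ± 0.56, adjusted p 0.151), and it was 0.69 (adjusted p 0.191) without floating GFI1 replicate 2. It was called without floating GFI1 replicate 3 (1.64, adjusted p 0.00413) and with no filter on low counts (1.32, adjusted p 0.000121).

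HK1 (ENSG00000156515, chr10:69269984-69401884), the form found in most cells, went in opposite directions. It was at 135, 137 and 129 CPM in attached and 207, 211 and 213 in floating controls, and at 209.6, 207 and 208 CPM in attached and 170.2, 170.5 and 176 in floating GFI1 cells. The attached GFI1 values overlapped with those of floating controls, and the floating GFI1 values lay between those and the attached controls. *HK1* rose with suspension in control cells (0.65 ± 0.04, adjusted p 1.73e-12) and fell in GFI1 cells (-0.27 ± 0.04, adjusted p 5.43e-06), a difference of -0.93 ± 0.06, adjusted p 7.16e-11. With GFI1 it was higher in attached cells (0.64 ± 0.04, adjusted p 3.46e-13) and lower in floating ones (-0.29 ± 0.04, adjusted p 7.11e-07). In RPKM, *HK2* made up 2.91% ± 0.0496 of the summed *HK1* and *HK2* level in attached controls and 12.8% ± 0.375 in floating controls. In GFI1 cells its share was 0.245% ± 0.129 attached and 5.53% ± 3.23 floating (SD, n = 3 each).

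The window of the 250 bases before the start of transcription was read for members that rose most with suspension, to show where the core letters of the hypoxia response element stand. The windows were taken from RefSeq on GRCh38.p14, and the genes were chosen after their values were seen. The motifs searched were ACGTG and GCGTG on both strands, and capitals mark each match, written as the printed strand reads, so that a reverse match appears as CACGT or CACGC. A palindromic CACGTG counts on both strands. *ENO1*, which did not rise with suspension in either genotype, is shown for contrast. The contrast is in its change with suspension, and *ENO1* is not offered as a gene that hypoxia-inducible factors do not target.
HK2 (chr2:74833877-74834126, plus strand): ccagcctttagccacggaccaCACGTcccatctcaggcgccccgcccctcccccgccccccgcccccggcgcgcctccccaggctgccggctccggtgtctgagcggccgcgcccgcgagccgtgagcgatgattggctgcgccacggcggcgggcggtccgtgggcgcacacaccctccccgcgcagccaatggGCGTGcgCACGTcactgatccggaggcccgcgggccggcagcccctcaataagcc
HK2 (chr2:74834920-74835169, plus strand): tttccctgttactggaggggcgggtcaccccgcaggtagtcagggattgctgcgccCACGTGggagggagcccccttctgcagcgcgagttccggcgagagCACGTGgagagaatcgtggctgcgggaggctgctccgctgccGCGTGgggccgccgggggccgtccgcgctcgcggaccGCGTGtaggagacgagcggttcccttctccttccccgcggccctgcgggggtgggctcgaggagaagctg
ALDOC (chr17:28576896-28577145, minus strand): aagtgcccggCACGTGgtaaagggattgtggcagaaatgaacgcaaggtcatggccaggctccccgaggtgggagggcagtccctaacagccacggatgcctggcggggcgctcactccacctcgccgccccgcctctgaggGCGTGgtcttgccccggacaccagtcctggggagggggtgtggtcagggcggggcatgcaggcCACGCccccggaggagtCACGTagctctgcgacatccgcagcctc
PDK1 (chr2:172555840-172556089, plus strand): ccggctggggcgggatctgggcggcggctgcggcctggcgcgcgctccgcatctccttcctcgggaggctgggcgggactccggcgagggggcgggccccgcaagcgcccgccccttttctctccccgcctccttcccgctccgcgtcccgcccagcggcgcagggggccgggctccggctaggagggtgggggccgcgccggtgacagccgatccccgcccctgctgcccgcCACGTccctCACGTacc
PFKFB4 (chr3:48556804-48557053, minus strand): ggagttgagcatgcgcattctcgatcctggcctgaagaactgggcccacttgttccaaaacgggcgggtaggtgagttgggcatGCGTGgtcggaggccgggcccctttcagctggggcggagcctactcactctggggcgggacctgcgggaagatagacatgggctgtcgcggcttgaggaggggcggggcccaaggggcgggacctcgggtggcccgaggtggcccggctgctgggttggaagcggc
ENO1 (chr1:8878687-8878936, minus strand): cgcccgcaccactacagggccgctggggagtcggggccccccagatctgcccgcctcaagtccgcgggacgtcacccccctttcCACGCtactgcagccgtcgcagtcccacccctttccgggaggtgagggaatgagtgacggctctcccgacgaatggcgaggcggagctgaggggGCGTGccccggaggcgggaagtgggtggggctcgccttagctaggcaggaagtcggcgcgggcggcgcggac
The first *HK2* window held 3 matches and the second 6, *ALDOC* held 5, the printed *PDK1* window and *ENO1* held 2 each, and *PFKFB4* held 1. RefSeq windows were found for 29 of the 32 genes, 59 windows in all, and 32 of these (54.2%) held either motif, where 43.2% of 35116 promoter windows did. ACGTG alone was in 37.3% of the windows of these genes and 18.5% of all, and GCGTG in 33.9% and 32.2%. AAATCAC, the core of the GFI1 site, was in 2 overlapping windows of *PFKM*, or 3.39% of the windows, against 2.74% of all. RefSeq gives a further *PDK1* window, not printed, which held 0 matches. A match is a description of the letters only. *PDHB*, with 6 matches in its window, changed by 0.22 ± 0.05 with suspension in control cells.

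Glucose 6-phosphate isomerase, GPI (ENSG00000105220, chr19:34359480-34402413), converts the trapped glucose phosphate to fructose phosphate. Its levels were 1314, 1330.0 and 1275 CPM in attached and 1892, 1785 and 1812 in floating controls, and 991, 912 and 952 in attached and 2010.3, 2618 and 1532 in floating GFI1 cells. Attached and floating libraries did not overlap in either genotype, and the floating GFI1 libraries enclosed the floating controls. *GPI* rose 1.40-fold in control (0.49 ± 0.10, adjusted p 0.000315) and 2.16-fold in GFI1 cells (1.11 ± 0.10, adjusted p 4.25e-09), with a larger rise in GFI1 cells (difference 0.62 ± 0.14, adjusted p 0.00415, 0.39 without floating GFI1 replicate 2 and still called, adjusted p 0.0504 in DESeq2). With GFI1 it was lower in attached cells (-0.46 ± 0.10, adjusted p 0.000316). The floating difference was not called (0.17 ± 0.10, adjusted p 0.155), but it was 0.34 and called without floating GFI1 replicate 3, was called with scaling by library size only (0.29) and with no filter on low counts (0.16), and was -0.042 without replicate 2.

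Of the 9 enzymes of the preparatory steps, 6 rose and 1 fell with suspension in control cells and 5 rose and 1 fell in GFI1 cells. With GFI1, 4 were higher and 4 lower when attached, and 3 were higher and 5 lower when floating. The shares over all genes given above stand beside this and the later counts by role. The 3 phosphofructokinase isozymes, which carry out the committed step, each followed a different course. PFKM (ENSG00000152556, chr12:48105139-48146404), the muscle form, was at 79.8, 84.01 and 80.3 CPM in attached controls and 87.96, 87.3 and 93.7 in floating controls, and at 16.7, 16.1 and 19.8 CPM in attached and 16.7, 18.1 and 15.8 in floating GFI1 cells. GFI1 cells thus stood far below controls whether attached or floating, 4.65-fold lower (-2.22 ± 0.07, adjusted p 7.74e-20) and 5.32-fold lower (-2.41 ± 0.07, adjusted p 1.75e-20). PFKP (ENSG00000067057, chr10:3066333-3137718), the platelet form, was at 516, 527 and 523 CPM in attached and 399, 400.0 and 394 in floating controls, and at 833, 785 and 803 CPM in attached and 797, 926 and 714 in floating GFI1 cells. It was higher with GFI1, 0.63 ± 0.06 attached (adjusted p 1.04e-09) and 1.03 ± 0.06 floating (adjusted p 8.25e-14). Suspension lowered *PFKP* in control cells (-0.39 ± 0.06, adjusted p 7.15e-06), its change in GFI1 cells was 0.01 ± 0.06, adjusted p 0.929, and both effects differed by 0.40 ± 0.08, adjusted p 0.00185. *PFKL*, the liver form, rose with suspension in control (0.13 ± 0.04, adjusted p 0.0205) and GFI1 cells (0.25 ± 0.04, adjusted p 6.62e-05), and was higher with GFI1 in floating cells (0.17 ± 0.04, adjusted p 0.00124). The control call of *PFKL* was lost without any 1 of attached control replicates 1 to 3 or floating control replicates 1 and 3 and with no filter on low counts (lowest value 0.097, adjusted p 0.131). For *PFKM*, the small rise in floating controls (0.14 ± 0.06, adjusted p 0.0498) was lost without any 1 of 8 libraries, with no filter on low counts, with the replicate block and in DESeq2 (lowest value 0.10, adjusted p 0.222, without floating control replicate 3).

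Among the aldolases, which split the 6-carbon sugar, ALDOC (ENSG00000109107, chr17:28573115-28576948) had the largest rise of the 32 genes in control cells. It went from 3.04, 3.10 and 2.58 CPM in attached to 39.5, 36.4 and 36.3 in floating controls, and from 3.83, 5.49 and 4.76 to 21.8, 28.7 and 16.2 in GFI1 cells. All floating libraries lay above all attached libraries. The rise was 12.8-fold in control cells (3.68 ± 0.17, adjusted p 6.42e-15) and 4.67-fold in GFI1 cells (2.22 ± 0.16, adjusted p 4.95e-11), and was smaller in GFI1 cells (difference -1.46 ± 0.25, adjusted p 0.000241). *ALDOC* was higher with GFI1 in attached cells (0.70 ± 0.22, adjusted p 0.00754) and lower with GFI1 in floating cells (-0.76 ± 0.12, adjusted p 7.63e-06). *ALDOA*, the muscle aldolase that most cells use, is uncertain here, because 42.8% of its exon bases in GENCODE v44 are shared with another gene of the same strand, and it held 298 to 625 counts in a library. Its change with suspension was 0.24 ± 0.12, adjusted p 0.104 in control cells, called without floating GFI1 replicate 2, with no filter on low counts, with the replicate block and in a fit of only the groups compared (adjusted p 0.00925 to 0.0373), and 0.32 ± 0.11, adjusted p 0.0262 in GFI1 cells, where the call was lost in DESeq2, with only the groups compared and without attached GFI1 replicate 1 or 3 or floating GFI1 replicate 2 (lowest 0.14, adjusted p 0.306). With GFI1 it was higher in attached cells (0.30 ± 0.11, adjusted p 0.0248), a call lost without attached control replicate 1 or 3 or attached GFI1 replicate 2 (lowest 0.15, adjusted p 0.265). In floating cells it was higher as well (0.37 ± 0.11, adjusted p 0.00474, 0.22 without floating GFI1 replicate 2). *TPI1*, which interconverts the triose phosphates, was lower with GFI1 (-0.30 ± 0.04, adjusted p 2.21e-06 and -0.35 ± 0.04, adjusted p 1.53e-07) and was not called with suspension.

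Of the 6 enzymes of the payoff steps, 4 rose with suspension in control cells, 4 rose and 1 fell in GFI1 cells, and with GFI1 2 were higher and 4 lower in either state. ENO1 (ENSG00000074800, chr1:8861000-8879190), the general enolase, was at 3361, 3405 and 3284 CPM in attached and 3246, 3258 and 3186 in floating controls, and at 1479, 1412 and 1437 CPM in attached and 1236, 1285 and 1267 in floating GFI1 cells. It was 2.32-fold lower with GFI1 in attached cells (-1.22 ± 0.04, adjusted p 3.92e-19) and 2.56-fold lower in floating cells (-1.36 ± 0.04, adjusted p 4.6e-20). With suspension its change was -0.05 ± 0.04, adjusted p 0.301 in control cells, and it fell in GFI1 cells (-0.19 ± 0.04, adjusted p 0.000373). ENO2 (ENSG00000111674, chr12:6913745-6923698), the neuronal enolase, went the other way, from 75.5, 82.3 and 78.3 CPM in attached to 156, 160.1 and 162 in floating controls and from 104, 99.9 and 101 to 202, 228 and 169.6 in GFI1 cells. *ENO2* rose 2.03-fold and 1.97-fold with suspension (1.02 ± 0.07, adjusted p 9.74e-12 and 0.98 ± 0.07, adjusted p 2.65e-11), and was higher with GFI1 in both states (0.37 ± 0.07, adjusted p 6.08e-05 and 0.32 ± 0.06, adjusted p 0.000123). Its share of the summed *ENO1* and *ENO2* RPKM was 2.81% ± 0.106 in attached controls, 5.74% ± 0.153 in floating controls, 7.98% ± 0.0409 in attached GFI1 cells and 16.3% ± 1.92 in floating GFI1 cells (SD, n = 3 each).

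*PGK1*, which makes ATP from bisphosphoglycerate, rose with suspension by 0.78 ± 0.08, adjusted p 5.69e-09 in control and 0.86 ± 0.08, adjusted p 2.58e-09 in GFI1 cells, and was lower with GFI1 (-0.79 ± 0.08, adjusted p 1.55e-09 attached, -0.71 ± 0.08, adjusted p 9.29e-09 floating). The human PGK promoter also drives GFI1 in the vector. In GFI1 cells *PGK1* was at 460.3, 459 and 455 CPM attached and 818, 993 and 682 floating, and GFI1 was at 290.4, 294 and 286 and 545, 706 and 430.2 CPM. Both rose with suspension, 1.81-fold and 1.93-fold (0.95 ± 0.10, adjusted p 2.38e-08 for GFI1). Both were highest in floating replicate 2 and lowest in replicate 3. This order was that of 22 of the members, *PGK1* included, and of 19.4% of all genes tested. The relation between *PGK1* and GFI1 was not tested.

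*GAPDH*, which oxidises the triose phosphate, rose in both genotypes (0.26 ± 0.08, adjusted p 0.00675 and 0.47 ± 0.08, adjusted p 2.81e-05), and *PKM*, pyruvate kinase, rose by 0.24 ± 0.04, adjusted p 4.56e-05 and 0.22 ± 0.04, adjusted p 0.000203. The *GAPDH* value in GFI1 cells was 0.30 without floating GFI1 replicate 2, and its call in control cells was lost in DESeq2 (adjusted p 0.058). *PGAM1*, phosphoglycerate mutase, was not called. With GFI1, *PKM* (-0.91 ± 0.04 and -0.93 ± 0.04) and *PGAM1* (-0.63 ± 0.04 and -0.59 ± 0.04) were lower in attached and floating cells, all 4 with adjusted p of 2.22e-12 or less. *GAPDH* was higher with GFI1 in floating cells (0.39 ± 0.08, adjusted p 7.03e-05, 0.25 without floating GFI1 replicate 2). In attached cells its difference of 0.19 ± 0.08, adjusted p 0.0304 was lost without attached control replicate 2 or 3 or attached GFI1 replicate 1 or 2 (lowest 0.17, adjusted p 0.0894) and in DESeq2. Opposite-strand genes share 17.6% of the *GAPDH* exon bases, and the strand setting of the counting was not stated.

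The 3 PFKFB enzymes set the level of fructose 2,6-bisphosphate, the activator of phosphofructokinase, and they followed different courses. PFKFB3 (ENSG00000170525, chr10:6144934-6254644) was at 497, 516 and 509 CPM in attached and 527, 493 and 499 in floating controls, and at 96.8, 96.3 and 92.2 CPM in attached and 115, 158 and 107 in floating GFI1 cells. It was 5.33-fold lower with GFI1 in attached cells (-2.42 ± 0.08, adjusted p 2.19e-18) and 4.001-fold lower in floating cells (-2.000 ± 0.08, adjusted p 7.45e-17). Its change with suspension was -0.004 ± 0.08, adjusted p 0.978 in control cells and 0.41 ± 0.08, adjusted p 0.000469 in GFI1 cells, with a difference of 0.42 ± 0.11, adjusted p 0.0191. Without floating GFI1 replicate 2 the latter 2 were both 0.21 and called, and without floating control replicate 2 the difference was not called (0.40, adjusted p 0.0507), nor was it in DESeq2 (0.41, adjusted p 0.147).

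PFKFB4 (ENSG00000114268, chr3:48517684-48562015) was low in attached controls, at 7.74, 7.98 and 7.46 CPM, and was at 44.9, 49.1 and 45.7 in floating controls. In GFI1 cells it was at 14.1, 16.7 and 13.4 CPM attached and 60.5, 87.4 and 41.9 floating. It rose 6.02-fold with suspension in control cells (2.59 ± 0.19, adjusted p 3.08e-11) and 4.26-fold in GFI1 cells (2.09 ± 0.16, adjusted p 2.1e-10), and was higher with GFI1 in attached cells (0.93 ± 0.21, adjusted p 0.000433). In floating cells the GFI1 groups overlapped with controls and the call (0.44 ± 0.14, adjusted p 0.00972) was lost without floating GFI1 replicate 2 (0.14, adjusted p 0.193) and in DESeq2 (adjusted p 0.128). Its interaction of -0.50 ± 0.26, adjusted p 0.252 was not called, except without floating GFI1 replicate 2 (-0.82, adjusted p 0.000172) and with no filter on low counts (-0.48, adjusted p 0.00143). *PFKFB2*, known from heart, was at 27.1, 30.8 and 28.2 CPM in attached and 19.7, 23.4 and 24.1 in floating controls, and at 21.6, 21.6 and 21.1 CPM in attached and 21.7, 20.01 and 23.9 in floating GFI1 cells. It fell with suspension in control cells (-0.36 ± 0.08, adjusted p 0.000874), its change in GFI1 cells was 0.03 ± 0.08, adjusted p 0.836, and the call on the difference of 0.39 ± 0.12, adjusted p 0.0303 was lost in DESeq2 and without any 1 of 6 libraries (lowest 0.30, adjusted p 0.104, without floating control replicate 1). With GFI1 it was lower in attached cells (-0.42 ± 0.08, adjusted p 6.27e-05), and its floating value was -0.03 ± 0.08, adjusted p 0.739. In RPKM, *PFKFB4* made up 1.45% ± 0.0470 of the 3 in attached controls, 8.24% ± 0.568 in floating controls, 12.01% ± 1.07 in attached GFI1 cells and 30.6% ± 4.29 in floating GFI1 cells (SD, n = 3 each).

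Of the 4 genes around lactate, 2 rose with suspension in each genotype, and with GFI1 2 were higher and 1 lower in either state. SLC16A3 (ENSG00000141526, chr17:82217934-82261129) encodes MCT4, the lactate exporter of glycolytic cells. It was at 58.1, 60.4 and 63.1 CPM in attached and 157, 153 and 154 in floating controls, and at 187, 182 and 169.8 CPM in attached and 281, 332 and 237 in floating GFI1 cells. The groups did not overlap, and attached GFI1 cells already stood above floating controls. *SLC16A3* rose 2.56-fold with suspension in control cells (1.35 ± 0.08, adjusted p 6.98e-13) and 1.58-fold in GFI1 cells (0.66 ± 0.07, adjusted p 7.92e-08), with a smaller rise in GFI1 cells (difference -0.69 ± 0.11, adjusted p 6.28e-05). With GFI1 it was 2.96-fold higher in attached (1.57 ± 0.08, adjusted p 3.96e-15) and 1.83-fold higher in floating cells (0.87 ± 0.07, adjusted p 1.05e-10). *SLC16A1*, which encodes MCT1, a carrier for lactate in either direction, was not called with suspension, except in control cells without floating control replicate 3 (-0.15, adjusted p 0.0379), and was lower with GFI1 in both states (-0.89 ± 0.05, adjusted p 1.12e-13 and -0.88 ± 0.05, adjusted p 2.53e-13). The share of *SLC16A3* in their summed RPKM was 30.00% ± 0.633 in attached controls and 54.1% ± 1.44 in floating controls, and 70.3% ± 0.859 in attached and 79.6% ± 2.40 in floating GFI1 cells (SD, n = 3 each).

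LDHA (ENSG00000134333, chr11:18394560-18408425) encodes the lactate dehydrogenase subunit that favours lactate formation. Its levels were 1822, 1795 and 1725 CPM in attached and 2241, 2246 and 2194 in floating controls, and 2028, 1952 and 1988 in attached and 3026, 3497 and 2604 in floating GFI1 cells. Each floating group stood above its attached group, and floating GFI1 cells were highest. *LDHA* rose in control (0.32 ± 0.06, adjusted p 0.000186) and GFI1 cells (0.61 ± 0.06, adjusted p 3.63e-08) and was higher with GFI1 in floating cells (0.45 ± 0.06, adjusted p 9.86e-07). Its interaction (0.29 ± 0.09, adjusted p 0.036) was lost in DESeq2 and without any 1 of 9 libraries (lowest 0.16, adjusted p 0.12, without floating GFI1 replicate 2), and the small difference in attached cells (0.16 ± 0.06, adjusted p 0.0311) was lost in DESeq2 and without any 1 of 4 (lowest 0.13, adjusted p 0.124, without attached control replicate 3). *LDHB*, the subunit of heart muscle, was not called in any comparison, with 634 to 1080 counts in a library and 33.4% of its exon bases shared with another gene of the same strand. Without attached GFI1 replicate 2 it was called with GFI1 in attached cells (0.36) and with suspension in GFI1 cells (-0.24). Scaling by library size only called it with GFI1 in attached (0.30, adjusted p 0.0281) and floating cells (0.28, adjusted p 0.046), and the latter was also called in a fit of only the groups compared (0.15, adjusted p 0.0398).

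At the pyruvate dehydrogenase gate, 3 of the 4 kinases that inhibit the complex rose with suspension in both genotypes. PDK1 (ENSG00000152256, chr2:172555373-172608669) went from 11.02, 11.4 and 8.32 CPM in attached to 33.4, 33.2 and 32.6 in floating controls and from 8.51, 9.19 and 8.51 to 27.7, 33.2 and 20.9 in GFI1 cells. It rose 3.22-fold (1.69 ± 0.12, adjusted p 4.81e-11) and 3.11-fold (1.64 ± 0.13, adjusted p 2.57e-10), while the difference with GFI1 in floating cells (-0.28 ± 0.11, adjusted p 0.0298) was lost in DESeq2, with library size only and without any 1 of 5 libraries (-0.12 without floating GFI1 replicate 3), and was -0.44 without floating GFI1 replicate 2. In attached cells its difference was -0.23 ± 0.14, adjusted p 0.172, called without attached control replicate 3 alone (-0.36, adjusted p 0.0416). PDK4 (ENSG00000004799, chr7:95583499-95596516), the kinase known from fasting, was at 308, 305 and 292 CPM in attached and 493, 518 and 498 in floating controls, and at 77.4, 83.1 and 79.01 CPM in attached and 119, 101 and 124 in floating GFI1 cells. *PDK4* rose with suspension (0.74 ± 0.05, adjusted p 3.18e-11 and 0.52 ± 0.06, adjusted p 1.17e-07), and with GFI1 it was 3.78-fold lower in attached (-1.92 ± 0.06, adjusted p 8.01e-20) and 4.39-fold lower in floating cells (-2.13 ± 0.06, adjusted p 6.53e-21). Its groups did not overlap.

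*PDK3* was at 19.8, 24.2 and 21.3 CPM in attached and 34.4, 37.3 and 34.2 in floating controls, and at 30.99, 29.96 and 31.1 CPM in attached and 39.2, 42.5 and 37.7 in floating GFI1 cells. It rose with suspension (0.70 ± 0.07, adjusted p 2.12e-08 and 0.37 ± 0.07, adjusted p 0.000102) and was higher with GFI1 in attached cells (0.49 ± 0.07, adjusted p 1.83e-06). The call in floating cells (0.17 ± 0.07, adjusted p 0.0302) was lost in DESeq2 and without floating control replicate 1 or 3 or floating GFI1 replicate 2 (lowest 0.13, adjusted p 0.129). *PDK2*, a kinase of most tissues, was at 14.8, 14.1 and 12.97 CPM in attached and 16.1, 17.2 and 14.9 in floating controls, and at 26.9, 24.9 and 25.7 CPM in attached and 23.6, 21.7 and 23.9 in floating GFI1 cells. It was higher with GFI1 (0.89 ± 0.08, adjusted p 3.57e-10 and 0.53 ± 0.08, adjusted p 2.46e-06) and not called with suspension (0.20 ± 0.08, adjusted p 0.0645 and -0.16 ± 0.07, adjusted p 0.104), except in control cells without floating control replicate 3 (0.25, adjusted p 0.0407), with library size only (0.22, adjusted p 0.0399) and with at least 10 counts in every library (0.21, adjusted p 0.043). Of its exon bases 38.6% are shared with genes of the opposite strand. The interactions of *PDK3* (-0.32 ± 0.10, adjusted p 0.036) and *PDK2* (-0.36 ± 0.11, adjusted p 0.0387) were lost without any 1 of 9 and of 7 libraries (adjusted p up to 0.122 and 0.124) and with no filter on low counts (adjusted p 0.0519 and 0.091), and that of *PDK2* also in DESeq2. In RPKM, *PDK4* made up 89.7% ± 0.539 of the 4 kinases in attached controls and 90.1% ± 0.220 in floating controls. In GFI1 cells its share was 60.6% ± 1.44 attached and 64.2% ± 3.64 floating (SD, n = 3 each).

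Both E1 subunits of the complex that are among the members were lower with GFI1. *PDHB*, its E1 beta subunit, was at 72.1, 72.6 and 68.8 CPM in attached and 84.05, 82.6 and 82.7 in floating controls, and at 42.8, 44.4 and 42.3 CPM in attached and 44.1, 41.4 and 40.7 in floating GFI1 cells. It was lower with GFI1 (-0.72 ± 0.05, adjusted p 1.54e-12 and -0.98 ± 0.05, adjusted p 2.82e-15), and it rose with suspension in control cells (0.22 ± 0.05, adjusted p 0.000327) with a change of -0.04 ± 0.05, adjusted p 0.624 in GFI1 cells (difference -0.26 ± 0.07, adjusted p 0.0126, not called with no filter on low counts, -0.25, adjusted p 0.0584). *PDHA1*, the E1 alpha subunit, was the 1 gene that fell with suspension in both genotypes (-0.15 ± 0.04, adjusted p 0.0075 and -0.15 ± 0.04, adjusted p 0.0133), the latter lost without attached GFI1 replicate 3 (-0.13, adjusted p 0.0841) or floating GFI1 replicate 2 (-0.12, adjusted p 0.0609). It too was lower with GFI1 (-0.58 ± 0.04, adjusted p 1.81e-11 and -0.58 ± 0.04, adjusted p 2.59e-11).

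Of the genes that lead to glycogen, GBE1 (ENSG00000114480, chr3:81489703-81761645), the branching enzyme, was at 67.8, 64.95 and 69.9 CPM in attached and 122, 131 and 125 in floating controls, and at 169, 177 and 174 CPM in attached and 262, 299.5 and 238 in floating GFI1 cells. The 4 groups formed separate steps. *GBE1* rose with suspension (0.90 ± 0.06, adjusted p 1.7e-11 and 0.62 ± 0.06, adjusted p 4.81e-09) and was 2.57-fold higher and 2.11-fold higher with GFI1 (1.36 ± 0.06, adjusted p 4.72e-16 and 1.08 ± 0.06, adjusted p 1.9e-14). The interaction (-0.28 ± 0.08, adjusted p 0.0323) was lost without any 1 of 7 libraries (weakest -0.20, adjusted p 0.0599, without floating GFI1 replicate 3). *PGM1*, which interconverts glucose phosphates, rose with suspension (0.21 ± 0.05, adjusted p 0.00122 and 0.18 ± 0.05, adjusted p 0.00987) and was lower with GFI1 (-0.57 ± 0.05, adjusted p 5.53e-10 and -0.61 ± 0.05, adjusted p 1.49e-10), the rise in GFI1 cells being lost without attached GFI1 replicate 2 (0.16, adjusted p 0.0545) or floating GFI1 replicate 2 (0.13, adjusted p 0.12).

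**Figure D4:**
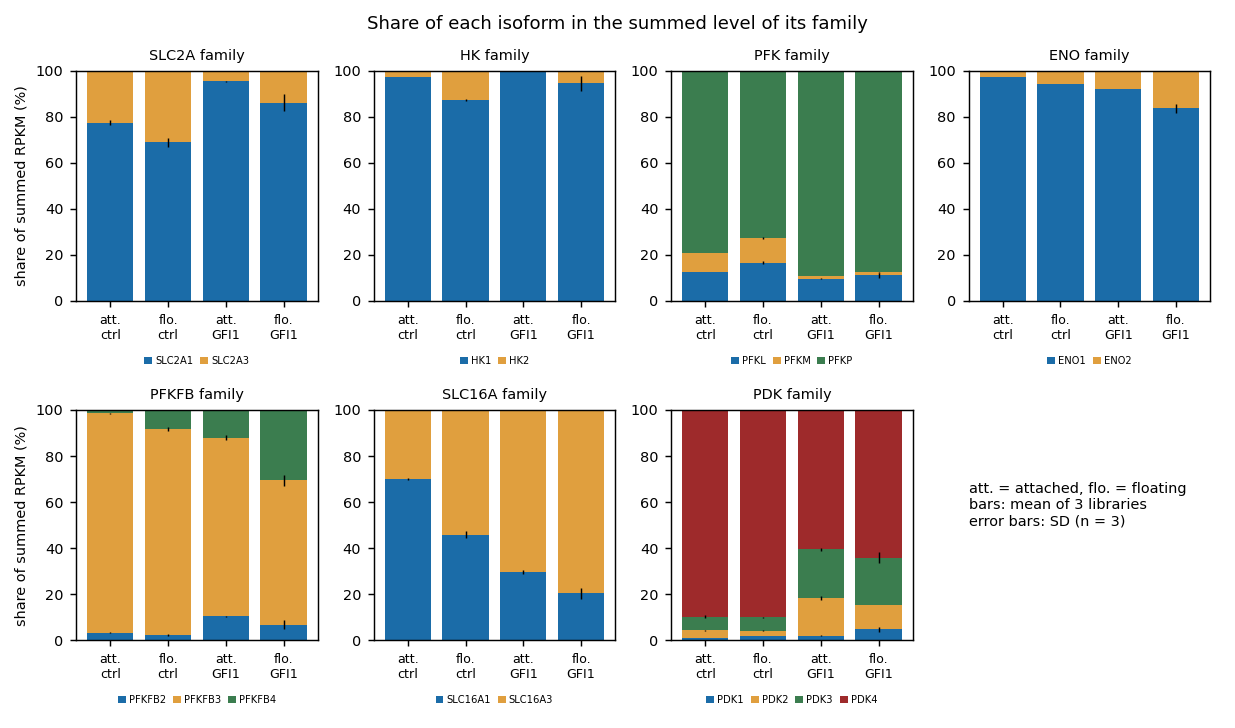
Share of each isozyme or transporter in the summed RPKM of the members of its family that are among the 32 genes, for the 4 groups. Bars are means of 3 libraries, and error bars are the SD of each segment below the uppermost. The share of *SLC16A3* runs from 30.00% ± 0.633 in attached controls to 79.6% ± 2.40 in floating GFI1 cells, and *PFKFB4* and *ENO2* take larger shares in the same direction.

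The shares were compared library by library with an exact two-sided permutation test, whose smallest p for 3 libraries against 3 is 0.10, so no share could pass 0.05. Over 72 comparisons the adjusted p was 0.107 at the lowest. *SLC2A3* was at 22.7% ± 1.03 of the summed *SLC2A1* and *SLC2A3* RPKM in attached controls and 31.2% ± 1.85 in floating controls. It was at 4.61% ± 0.131 in attached and 13.9% ± 3.65 in floating GFI1 cells. *PFKM* was at 8.15% ± 0.156 of the phosphofructokinases in attached controls and 10.8% ± 0.434 in floating controls, against 1.28% ± 0.146 and 1.21% ± 0.0611 in GFI1 cells (SD, n = 3 each). All of these values use the gene lengths of the deposited table.

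The floating GFI1 libraries did not move together. For 22 of the 32 genes replicate 2 was the highest and replicate 3 the lowest of the 3, where 19.4% of all genes tested had this order, and the order was noticed after the values were seen. *HK2*, *SLC2A3* and *PFKFB4* spread most, as given above, and floating controls stayed close together for the same genes. Without floating GFI1 replicate 2, 18 genes rose and 2 fell with suspension in GFI1 cells. In floating cells, 10 genes were then higher and 17 lower with GFI1. Without replicate 3, 20 rose and 3 fell with suspension, and 13 were higher and 15 lower with GFI1.

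**Figure D5:**
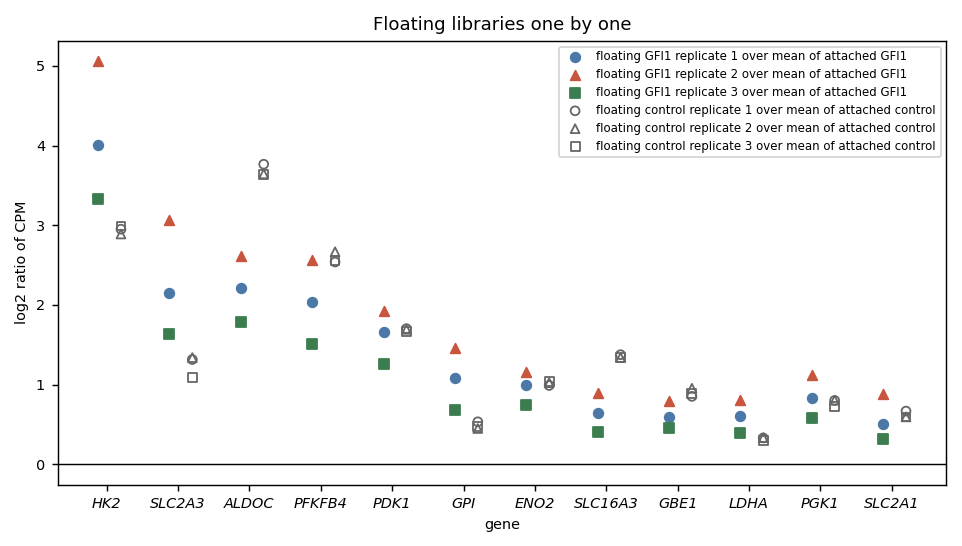
Level of 12 of the genes in each floating library, as the log2 ratio of its CPM to the mean CPM of the 3 attached libraries of the same genotype. Filled symbols are floating GFI1 libraries, open symbols are floating control libraries, and shapes are replicates. In all 12 genes floating GFI1 replicate 2 lies above replicate 1 and replicate 3 below it, whereas the open symbols lie close together. All 12 are among the 22 of the 32 genes with this order, so the figure does not show how common the order was.

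The genes around glycolysis were counted in 10 lists with the same test. The lists were chosen by textbook role, but with earlier results of these data known. Of all genes tested, 19.6% rose and 20.5% fell with suspension in control cells, and 15.0% and 16.3% in GFI1 cells. With GFI1, 29.5% were higher and 32.8% lower attached, and 29.3% and 31.1% floating. The counts of all 10 lists stand beside these shares, and no list was tested as a set. Of 8 tested glucose transporters outside the members, 2 rose and 1 fell with suspension in control cells and 1 rose and 1 fell in GFI1 cells. *SLC2A13*, a carrier for myo-inositol, rose in both (0.67 ± 0.08 and 0.31 ± 0.06), and *SLC2A8*, an intracellular transporter, fell (-0.31 ± 0.08 and -0.55 ± 0.08). With GFI1, 2 of the 8 were higher and 4 lower when attached, and 2 were higher and 3 lower when floating. Of 13 tested isozymes and side steps, 5 rose and 1 fell in each genotype, and with GFI1 5 were higher and 3 lower attached and 4 higher and 2 lower floating. *HKDC1*, a further hexokinase, fell with suspension (-0.64 ± 0.06, adjusted p 1.3e-09 and -1.48 ± 0.13, adjusted p 1.26e-09) and was far lower with GFI1 (-3.69 ± 0.07, adjusted p 2.06e-23 and -4.53 ± 0.09, adjusted p 2.58e-23). *ENO3*, muscle enolase, rose with suspension in GFI1 cells (0.46 ± 0.05) and was higher with GFI1 (1.68 ± 0.06, adjusted p 1.63e-18 and 1.999 ± 0.06, adjusted p 2.71e-20). *BSG*, the chaperone of the lactate carriers, rose (0.35 ± 0.07 and 0.65 ± 0.07). Beside the medians over all genes given above, the median log2 change of the transporters was -0.16, 0.29, -0.46 and 0.19 for suspension in control cells, suspension in GFI1 cells, GFI1 attached and GFI1 floating. That of the isozymes was 0.14, 0.22, 0.13 and 0.11 in the same order, which is kept for the lists that follow.

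Routes that branch from glycolysis or run against it were counted in 4 lists. Of 13 genes of the hexosamine, glycerol phosphate and serine branches, 2 rose and 7 fell with suspension in control cells, 2 rose and 6 fell in GFI1 cells, and with GFI1 1 was higher and 11 lower in either state. *PSAT1*, an enzyme of serine synthesis, fell with suspension (-0.71 ± 0.05, adjusted p 6.81e-12 and -0.997 ± 0.05, adjusted p 3.74e-13), and *GFPT1*, the entry enzyme of hexosamine synthesis, rose (0.43 ± 0.05 and 0.39 ± 0.05). Of 8 tested genes of the pentose phosphate pathway, 1 rose and 5 fell in control cells, 2 rose and 4 fell in GFI1 cells, and with GFI1 2 were higher and 5 lower attached and 2 higher and 6 lower floating. *RPIA* and *TKT*, of its non-oxidative arm, fell by -0.40 ± 0.09 in control and -0.26 ± 0.04 in GFI1 cells, and *PGD* and *H6PD*, dehydrogenases of the pathway, rose by 0.12 ± 0.04 in control and 0.15 ± 0.05 in GFI1 cells. Of 4 tested genes of gluconeogenesis, 1 rose and 2 fell in control cells and 2 rose and 1 fell in GFI1 cells, and with GFI1 1 was higher and 3 lower attached and 1 higher and 1 lower floating. *PCK1*, the cytosolic carboxykinase, had 0, 2 and 1 counts in attached controls and 23, 12 and 9 in floating controls, and *PCK2*, the mitochondrial form, fell (-0.34 ± 0.06 and -0.29 ± 0.07). Of 16 genes of glycogen and galactose, 5 rose and 1 fell in control cells and 8 rose and 3 fell in GFI1 cells, with *GYS1*, glycogen synthase, at 0.51 ± 0.05 in control and *PPP1R3C*, a glycogen targeting subunit, at 1.19 ± 0.10 in GFI1 cells, and *GYG2*, a glycogenin, lower in both (-0.58 ± 0.08 and -0.48 ± 0.08). With GFI1, 3 of the 16 were higher and 9 lower attached and 4 higher and 8 lower floating. Medians were -0.15, -0.081, -1.01 and -1.07 for the hexosamine, glycerol phosphate and serine branches, and -0.12, -0.13, -0.32 and -0.39 for the pentose phosphate pathway. They were -0.078, 0.14, -0.23 and -0.012 for gluconeogenesis, which includes *PCK1* at its fitted value, and 0.11, 0.13, -0.23 and -0.15 for glycogen and galactose.

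Beyond pyruvate, 1 of 16 genes of the tricarboxylic acid cycle rose and 8 fell with suspension in control cells, and 0 rose and 9 fell in GFI1 cells. With GFI1, 1 was higher and 12 lower when attached, and 1 was higher and 14 lower when floating. *SUCLG2* fell by -0.26 ± 0.05 and *SUCLA2* rose by 0.29 ± 0.06 in control cells, both subunits of succinate-CoA ligase, and *MDH2*, malate dehydrogenase, fell by -0.31 ± 0.04 in GFI1 cells. Of 7 genes of pyruvate entry into mitochondria, 3 rose and 1 fell in control cells, 0 rose and 2 fell in GFI1 cells, and with GFI1 2 were higher and 3 lower attached and 2 higher and 4 lower floating. *PDP1*, the phosphatase that reverses the PDK kinases, rose in control cells (0.41 ± 0.08, adjusted p 8.76e-05), and *DLAT*, the E2 subunit, fell in both (-0.20 ± 0.05 and -0.20 ± 0.05). Medians were -0.086, -0.15, -0.29 and -0.41 for the cycle and 0.084, -0.038, -0.062 and -0.21 for pyruvate entry.

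Of 9 tested genes of oxygen sensing, 2 rose and 4 fell with suspension in control cells and 3 rose and 0 fell in GFI1 cells, and with GFI1 5 were higher and 3 lower attached and 6 higher and 2 lower floating. *EGLN3*, a prolyl hydroxylase that is itself induced by hypoxia-inducible factors, rose in both (2.53 ± 0.16, adjusted p 4.2e-12 and 2.05 ± 0.14, adjusted p 3.13e-11). The *HIF1A* transcript fell in control cells (-0.39 ± 0.04, adjusted p 4.82e-08) and was lower with GFI1 (-1.21 ± 0.04, adjusted p 2.94e-18 and -0.91 ± 0.04, adjusted p 1.22e-15). Oxygen in the medium and the HIF1A protein were not measured in these data. Of 6 glucose-sensing arrestin domain genes and their factors, 4 rose and 1 fell in control cells and 0 rose and 1 fell in GFI1 cells, and with GFI1 1 was higher and 3 lower attached and 0 higher and 4 lower floating. *TXNIP*, which restrains glucose uptake, rose in control cells (2.27 ± 0.18, adjusted p 2.09e-10) and changed by 0.04 ± 0.14, adjusted p 0.868 in GFI1 cells, a difference of -2.23 ± 0.23, adjusted p 2.57e-07. *MYC* fell in both (-0.30 ± 0.05 and -0.70 ± 0.06). Medians were -0.077, 0.067, 0.16 and 0.26 for oxygen sensing and 0.39, 0.050, -0.14 and -0.74 for the arrestin domain list.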

How the data were processed

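RNA-Seq was done on A549 cells in 4 groups of 3 libraries. The authors deposited raw counts per gene, made per the methods of the study with Hisat2 and featureCounts on GRCh38, whereas the submitters' notes name Bowtie2, HTSeq and hg38. The annotation release and strand setting were not given in the sources used here. Genes were kept by filterByExpr (minimum count 10, minimum total 15), which left 17829. The counts were TMM-scaled and fitted with 4 group means in edgeR 4.0.16 (limma 3.58.1, R 4.3.3) by the quasi-likelihood test, two-sided, with 5 contrasts, Benjamini-Hochberg adjustment within each, and a threshold of 0.05. SE is the log2 fold change divided by the square root of F. RPKM used the deposited gene lengths. Alternatives were DESeq2 1.42.0, other scalings and filters, leaving out each library, a replicate block and added pseudogene counts. The 18 same-number correlations of libraries between groups lay between -0.031 and 0.031, so replicate numbers were not taken as pairs. The members and lists were chosen with earlier results of these data known. All 32 members are named. Values per library are given for members called with a log2 fold change of at least 1 in a pairwise contrast or called in the interaction. Of each other list, the gene with the lowest adjusted p per direction and suspension contrast is named.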

Additional observations from a re-analysis of the deposited data

Results flagged for a closer look

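For 13 of the 32 genes the change with suspension differed between GFI1 and control cells by the interaction test of edgeR, where 10.8% of all genes tested were called. Values are the log2 change in GFI1 cells minus that in control cells, with the SE. The change was higher in GFI1 cells for *SLC2A3* (1.15 ± 0.28), *GPI* (0.62 ± 0.14), *PFKFB3* (0.42 ± 0.11), *PFKP* (0.40 ± 0.08), *PFKFB2* (0.39 ± 0.12) and *LDHA* (0.29 ± 0.09). It was lower in GFI1 cells for *ALDOC* (-1.46 ± 0.25), *HK1* (-0.93 ± 0.06), *SLC16A3* (-0.69 ± 0.11), *PDK2* (-0.36 ± 0.11), *PDK3* (-0.32 ± 0.10), *GBE1* (-0.28 ± 0.08) and *PDHB* (-0.26 ± 0.07). In DESeq2 the interaction was called for 8 of the 32 genes, 1 of them higher. Of the 13, *SLC2A3*, *GPI*, *PFKFB3*, *PFKFB2*, *LDHA* and *PDK2* were not called there, so the 8 include a member that edgeR did not call. With 3 libraries in each group, no rule was applied to flag single libraries, but the floating GFI1 libraries spread as given above. Without floating GFI1 replicate 2 the difference was 0.64 for *SLC2A3*, 0.39 for *GPI* and 0.21 for *PFKFB3*. For *ALDOC*, *SLC16A3* and *GBE1* it was then larger in size, at -1.70, -0.84 and -0.39.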

How the results depend on the processing

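Over 143 results with a test and 2840 alternative values, 2693 kept their direction and call, 101 lost a call, 24 gained a call and 22 changed sign, and none of the last were called in the main analysis. The 143 leave out the interactions of members not called in the main analysis, other than *HK2* and *PFKFB4*. Calls gained in the interactions left out are therefore not in these numbers. Of 117 called results of the 32 genes, 96 kept their call in every alternative in which they were tested, the added fold of 2 aside. *HK2* was not tested with at least 10 counts in every library, and the interaction was not tested in fits of only the groups compared. With a minimum fold of 2 added, 7, 6, 9, 8 and 2 of the 32 genes and 909, 500, 3247, 3078 and 241 of all genes were called for suspension in control cells, suspension in GFI1 cells, GFI1 in attached cells, GFI1 in floating cells and the interaction. In DESeq2 the interaction was called for 8 of the 32 genes.

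Leaving out single libraries gave 22 to 25, 20 to 23, 27 to 29, 26 to 28 and 8 to 13 called members in the same order, and 6343 to 7419, 4664 to 5624, 10440 to 11358, 10085 to 10872 and 1481 to 2090 called genes. The values that changed sign ran, for suspension in control cells, from -0.022 to 0.063 (*TPI1*), -0.035 to 0.014 (*PFKFB3*) and -0.12 to 0.048 (*LDHB*). For suspension in GFI1 cells they ran from -0.12 to 0.047 (*PFKM*), -0.11 to 0.095 (*PFKP*), -0.022 to 0.026 (*PGAM1*), -0.041 to 0.075 (*PFKFB2*) and -0.24 to 0.094 (*LDHB*). For GFI1 in floating cells they ran from -0.042 to 0.34 (*GPI*) and from -0.12 to 0.032 (*PFKFB2*). With other settings, *PFKFB3* in control cells was 0.0035 with RLE size factors, 0.017 with library size only, 0.0094 with at least 10 counts in every library and 0.00058 with only the groups compared, and *PFKFB2* in floating cells was 0.095 with library size only. The cause was not tested.

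Isoform shares from counts without gene length, in attached control, floating control, attached GFI1 and floating GFI1 cells, were 10.7%, 13.7%, 1.78% and 1.66% for *PFKM*, 2.29%, 4.71%, 6.57% and 13.6% for *ENO2*, 42.0%, 66.6%, 80.0% and 86.9% for *SLC16A3* and 86.8%, 85.6%, 55.0% and 55.9% for *PDK4*. They were 27.6%, 37.1% and 5.93% for *SLC2A3* in the first 3 groups and 2.81% and 12.4% for *HK2* in both control groups. The missing division by length makes this difference.

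With the replicate number as a block, 24, 23, 29, 28 and 13 members and 7110, 5546, 11054, 10713 and 1904 genes were called, *ALDOA* gained its call in control cells with suspension (adjusted p 0.0308) and *PFKM* lost its own (0.0525). No pairing of the numbers was seen. The attached GFI1 counts of *HK2*, 7, 17 and 6, limit its log2 fold change in GFI1 cells with suspension, which ran from 3.63 to 4.79 without single libraries.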
